A study of Homo sapiens with 4 samples.

Results

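The genes described here are 43 human genes that run or restrain programmed cell death: the BCL2 family, caspases, the apoptosome and its mitochondrial partners, the inhibitor of apoptosis proteins (IAPs), and death receptors with their adaptors. They were chosen by name, and all 43 symbols matched 1 Ensembl identifier each among the 64252 gene rows of the count table. RNA sequencing libraries of SK-N-BE(2), an established neuroblastoma cell line with amplified MYCN, were compared between cells that received a scramble short hairpin RNA (shRNA), labelled sh-Scb, and cells that received sh-IRF2BP2, an shRNA against the transcriptional co-regulator IRF2BP2. Each group had 2 libraries, and the comparison asks which transcripts differ when IRF2BP2 is lowered. The number of hairpins or clones behind a group and the time after delivery were not given in the sources used here.

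Apoptosis runs along 2 routes that meet at the caspases. On the mitochondrial route, BH3-only proteins sense stress and block BCL2-like guardians or activate BAX and BAK1. BAX and BAK1 then open the outer mitochondrial membrane, and released cytochrome c assembles APAF1 and CASP9 into the apoptosome. On the receptor route, ligand-bound death receptors recruit FADD and activate CASP8, with CFLAR as the brake. IAPs restrain caspases, and DIABLO and HTRA2 relieve that restraint. RIPK1, RIPK3 and MLKL run necroptosis, a caspase-independent death. Neuroblastomas with amplified MYCN often silence CASP8.

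Total counts lay between 30847699 and 34684651 per library. IRF2BP2 itself had 243 and 238 CPM (counts relative to the scaled total of the library) with scramble and 89.7 and 87.6 CPM with its shRNA, so both shRNA libraries lay far below both scramble libraries. Of 8 neuroblastoma markers, all had counts, and their summed level was 7748 to 8073 CPM with scramble and 8694 to 8813 CPM with the shRNA, most of it MYCN. Leukocyte (5 genes, with CD3E and LYZ at 0), epithelial (4 genes, 0 at 0) and endothelial (4 genes, with PECAM1 at 0) markers each summed to between 0.875 and 6.97 CPM per library, while 6 fibroblast markers, 0 of them at 0 throughout, summed to 303 to 319 CPM with scramble and 270 to 272 CPM with the shRNA. Of the 5 fibroblast markers tested, all were called and they moved both ways by edgeR's test described below, with COL1A1 (log2 fold change 2.17) and COL3A1 (1.49) higher and DCN (-1.30), LUM (-1.03) and PDGFRB (-0.36) lower. The part of these fibroblast marker differences in the results was not tested. The share of mitochondrially encoded counts was 7.10% to 7.27% with scramble and 6.42% in each shRNA library, and its part was not tested either. These are bulk libraries, so fewer cells of a kind and less RNA per cell cannot be told apart.

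Lowering IRF2BP2 came with changes in both directions among the death genes, with nearly as many rises as falls. A gene is called when its adjusted p from edgeR's quasi-likelihood test over all 19093 genes tested is under 0.05. Of the 43 genes, 37 had enough counts to be tested. Of these, 15 (40.5%) were called, beside 42.0% of all genes tested. Among the members 7 were higher, beside a background of 20.6%, and 8 were lower, beside 21.4%. The members' share was thus near the background. The median log2 fold change, IRF2BP2 shRNA over scramble, was 0.04 over the members tested and -0.01 over all genes tested. Over 1.5-fold, 6 members were called (17.7% of all genes), 1 higher (6.33%) and 5 lower (11.4%). In 28 of the 37 (75.7%) the libraries of the groups did not overlap, beside 70.4% of all genes tested.

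**Figure D1:**
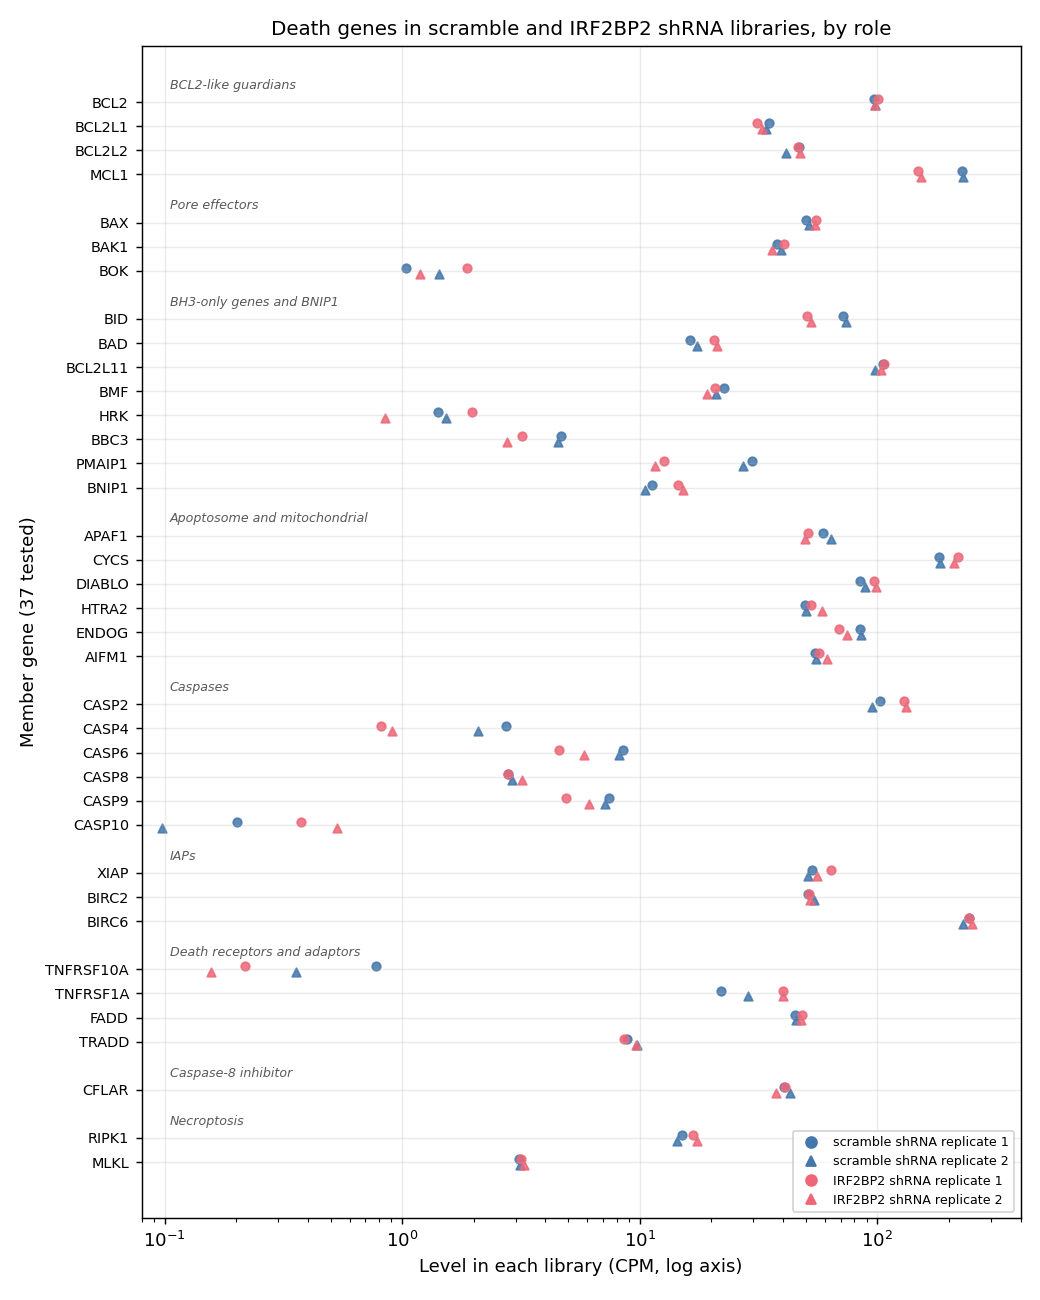
Level of each of the 37 tested death genes in CPM on a log axis, grouped by role; blue points are scramble libraries, red points IRF2BP2 shRNA libraries, circles replicate 1 and triangles replicate 2. Among called genes the colours lie farthest apart for CASP4 and PMAIP1, and the group means of the uncalled TNFRSF10A and CASP10, with few counts, differ as much. The colours lie on each other for genes such as BCL2, BAK1, CASP8 and MLKL.

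Set apart by what they do, 11 members oppose death and 32 promote it. Of the 8 anti-death genes tested, 1 rose, 1 fell and 6 were not called. Of the 29 pro-death genes tested, 6 rose, 7 fell and 16 were not called. Their median log2 fold changes were 0.01 and 0.04. The shares called were 25% of the anti-death and 44.8% of the pro-death genes tested, beside 42.0% of all genes tested. The pro-death share was thus near the background. The counts by role below stand beside the same background, with 20.6% of all genes called higher and 21.4% lower. Summed over the 11 listed anti-death genes, the level per kilobase of exon was 114 ± 0.77 CPM per kilobase with scramble and 97.3 ± 0.54 with the shRNA (SD, n = 2), and this sum carries MCL1. Over the 32 pro-death genes the sums were 327 ± 2.74 and 326 ± 3.68 CPM per kilobase, and the libraries overlapped. ENDOG, whose exons overlap those of SPOUT1 as described below, held 72.7 and 61.2 CPM per kilobase of these sums.

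The 6 members that could not be tested had few or no reads. BCL2A1, a guardian of blood cells, and CASP1, which matures interleukin-1 beta, had 0 counts in all 4 libraries. A count of 0 allows up to 3 counts, or 0.0865 to 0.0973 CPM depending on the library, which covers counting error only. RIPK3 had 1 count in all, in scramble replicate 1, and TNFRSF10D, a decoy receptor for TRAIL, had 2, in IRF2BP2 shRNA replicate 1. BIK, a BH3-only gene, had 6 and 23 counts with scramble and 4 and 3 with the shRNA. BIRC3, an IAP of NF-kB signalling, had 19 and 8 counts with scramble and 5 and 5 with the shRNA. For both, the scramble libraries differed from each other more than the lower of them differed from the shRNA libraries.

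Of 4 guardians tested, 1 was called, MCL1, which fell. It encodes a short-lived protein that holds BAK1 and BH3-only proteins in check, and lies on the minus strand of chromosome 1 from 150574551 to 150579738 (GRCh38, GENCODE release 29). MCL1 was at 228 and 230 CPM with scramble and at 149 and 152 CPM with the shRNA. The replicates lay within a few CPM of each other and the groups were far apart. This was a 1.52-fold fall (log2 fold change -0.60 with standard error 0.04, edgeR adjusted p = 3.34e-07), and MCL1 was called in all 11 alternative analyses, with values from -0.65 to -0.58.

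The other guardians differed little. BCL2, the founding member, was at 96.7 and 97.2 CPM with scramble and 101 and 98.1 CPM with the shRNA (log2 fold change 0.04, 95% interval -0.05 to 0.13, edgeR adjusted p = 0.53). BCL2L1, which encodes BCL-XL, was at 34.96 and 34.04 CPM with scramble and 31.1 and 32.8 CPM with the shRNA (log2 fold change -0.11, interval -0.27 to 0.05). BCL2L2, which encodes BCL-W, ranged from 41.2 to 46.7 CPM with scramble and from 46.2 to 47.2 CPM with the shRNA, and its groups overlapped. None of the 3 was called, and each interval excludes a change as large as that of MCL1. An antisense gene, ABALON, covers 42.97% of the exon length of BCL2L1. The library kit does not mark strand, so the reads of ABALON and BCL2L1 cannot be told apart there. BCL2L2-PABPN1 covers 19.4% of the exon length of BCL2L2 on the same strand, and PPP1R3E covers 4.92% on the opposite strand. Their mean counts were 9.2 and 382 against 1468 for BCL2L2.

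Per kilobase of exon, MCL1 was the most abundant guardian in both groups, at 52.3 CPM per kilobase with scramble and 34.4 with the shRNA. BCL2L2 (10.5), BCL2L1 (10.4) and BCL2 (8.24) followed with scramble on this scale, and BCL2L2 and BCL2L1 did not differ beyond the spread between the scramble libraries. The exon length joins all annotated exons of a gene, so long untranslated ends lower the value of BCL2. The ratio of MCL1 to BCL2 counts was 2.35 and 2.37 in the scramble libraries and 1.48 and 1.55 in the shRNA libraries. The guardians together summed to 81.5 ± 0.68 CPM per kilobase with scramble and 63.7 ± 0.95 with the shRNA (SD, n = 2). MCL1 alone held 52.3 and 34.4 CPM per kilobase of these sums, and no other guardian tested was called.

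**Figure D2:**
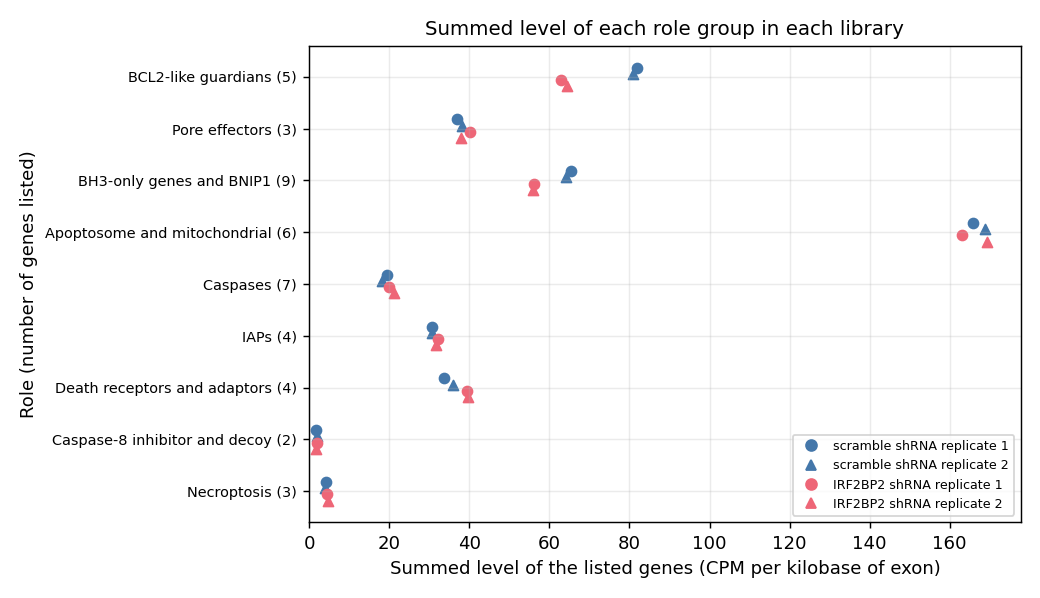
Summed level of the listed genes of each role in CPM per kilobase of exon, in each library; blue points are scramble libraries, red points IRF2BP2 shRNA libraries, circles replicate 1 and triangles replicate 2. The guardian sums fall from near 81.5 to near 63.7, and MCL1 within them from 52.3 to 34.4. The BH3-only sums fall from near 64.7 to near 56.0, while the apoptosome and mitochondrial sums overlap. The largest part of the apoptosome and mitochondrial sums is ENDOG, at 72.7 with scramble and 61.2 with the shRNA, whose exons overlap those of SPOUT1.

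Of the 3 effectors that form the pore, 0 were called by edgeR or in any alternative, DESeq2 and limma voom included, and 0 had an unadjusted p under 0.05. BAX was at 50.2 and 51.8 CPM with scramble and 55.0 and 54.8 CPM with the shRNA, so the shRNA libraries lay above both scramble libraries, but by little (log2 fold change 0.11, interval -0.02 to 0.24, edgeR adjusted p = 0.181). BAK1 was at 37.7 and 39.2 CPM with scramble and 40.2 and 35.9 CPM with the shRNA, with the scramble values inside the shRNA range. BOK, a more distant effector-like relative, had between 1.04 and 1.88 CPM in the 4 libraries, and its interval ran from -0.47 to 1.09 on the log2 scale. The ratio of BCL2 to BAX counts was 1.93 and 1.88 with scramble and 1.83 and 1.79 with the shRNA.

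BH3-only genes moved both ways, and the falls were the larger. Of 8 tested, counting BNIP1, 3 fell, 2 rose and 3 were not called. PMAIP1, which encodes NOXA, a BH3-only protein that binds mainly MCL1, lies on the plus strand of chromosome 18 from 59899948 to 59904306. It was at 29.6 and 27.1 CPM with scramble and 12.6 and 11.6 CPM with the shRNA. The groups were far apart relative to either pair. This was a 2.34-fold fall (log2 fold change -1.23 with standard error 0.10, edgeR adjusted p = 1.58e-06).

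PMAIP1 fell by more than its partner MCL1, and the ratio of MCL1 to PMAIP1 counts was 7.70 and 8.49 in the scramble libraries and 11.8 and 13.1 in the shRNA libraries. These ratios do not overlap between the groups. With 2 libraries against 2, an exact permutation test of such a ratio cannot reach 0.05, so none is given.

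BID, which is cut by CASP8 and so links the receptor route to mitochondria, was at 71.6 and 73.5 CPM with scramble and 50.4 and 52.5 CPM with the shRNA. All shRNA values lay below all scramble values, a 1.41-fold fall (log2 fold change -0.50 with standard error 0.06, edgeR adjusted p = 2.69e-05). The ratio of BID to BAX counts was 1.43 and 1.42 with scramble and 0.915 and 0.958 with the shRNA. BBC3, which encodes PUMA, was low, at 4.67 and 4.53 CPM with scramble and 3.19 and 2.75 CPM with the shRNA (log2 fold change -0.63, edgeR adjusted p = 0.0324). Its call was lost on leaving out any 1 library (edgeR adjusted p = 0.0939 and 0.0681 without scramble replicates 1 and 2, 0.0687 and 0.179 without shRNA replicates 1 and 2) with no filter on low counts (edgeR adjusted p = 0.0589) and with DESeq2 (DESeq2 adjusted p = 0.121).

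BAD, whose protein is held inactive by survival kinases, was at 16.3 and 17.4 CPM with scramble and 20.6 and 21.1 CPM with the shRNA. It rose (log2 fold change 0.31 with standard error 0.09, edgeR adjusted p = 0.0197), but GPR137 covers 23.6% of its exon length on the opposite strand and had a mean count of 954 against 608 for BAD, and reads from the overlap cannot be told apart. The call on BAD was lost without scramble replicate 1 (edgeR adjusted p = 0.0798), without shRNA replicate 1 (0.0678) or replicate 2 (0.116), and with DESeq2 (DESeq2 adjusted p = 0.0712). BNIP1, a BH3-containing SNARE of the endoplasmic reticulum, was at 11.3 and 10.5 CPM with scramble and 14.5 and 15.3 CPM with the shRNA (log2 fold change 0.45, edgeR adjusted p = 0.0089; 0.0619 without shRNA replicate 2).

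BCL2L11, which encodes BIM, was the most abundant BH3-only gene by CPM. Per kilobase of exon, BID stood above it with scramble (16.3 against 15.3 CPM per kilobase) and below it with the shRNA (11.6 against 15.8). BCL2L11 was at 106 and 97.9 CPM with scramble and 107 and 103 CPM with the shRNA, so the groups overlapped (log2 fold change 0.04, interval -0.06 to 0.15, edgeR adjusted p = 0.495). MIR4435-2HG covers 10.9% of the exon length of BCL2L11 on the opposite strand, with a mean count of 503 against 3347.5. Reads from that overlap cannot be told apart. BMF, linked to the cytoskeleton, was at 22.6 and 21.0 CPM with scramble and 20.7 and 19.2 CPM with the shRNA, and was not called (edgeR adjusted p = 0.29). HRK, a BH3-only gene of neurons, had 1.41 and 1.53 CPM with scramble and 1.97 and 0.844 CPM with the shRNA, where the shRNA replicates lay on either side of both scramble libraries. The ratio of BCL2L11 to MCL1 counts was 0.465 and 0.426 with scramble and 0.716 and 0.68 with the shRNA. Summed over the 9 listed genes, the BH3-only level was 64.7 ± 0.88 CPM per kilobase with scramble and 56.0 ± 0.27 with the shRNA (SD, n = 2).

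The stretches before the start sites of the 3 BH3-only genes that fell are shown beside those of CASP2 and TNFRSF1A, which rose, so that genes moving in opposite directions can be read side by side. Each is the 250 bases before the RefSeq start nearest to the annotated gene start (GRCh38.p14), written 5′ to 3′ on the strand of the gene, and these genes can have other starts.
PMAIP1, chr18:59899746-59899995, plus strand: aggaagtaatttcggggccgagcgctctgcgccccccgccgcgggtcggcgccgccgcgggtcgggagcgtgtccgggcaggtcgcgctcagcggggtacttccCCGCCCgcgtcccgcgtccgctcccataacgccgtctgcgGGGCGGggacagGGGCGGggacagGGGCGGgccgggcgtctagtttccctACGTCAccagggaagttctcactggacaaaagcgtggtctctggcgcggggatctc
BBC3, chr19:47232668-47232917, minus strand: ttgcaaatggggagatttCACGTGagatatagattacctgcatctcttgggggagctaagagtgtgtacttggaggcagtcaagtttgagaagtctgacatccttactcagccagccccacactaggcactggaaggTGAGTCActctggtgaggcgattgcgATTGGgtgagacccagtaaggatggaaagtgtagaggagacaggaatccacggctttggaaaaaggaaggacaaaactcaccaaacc
BID, chr22:17774666-17774915, minus strand: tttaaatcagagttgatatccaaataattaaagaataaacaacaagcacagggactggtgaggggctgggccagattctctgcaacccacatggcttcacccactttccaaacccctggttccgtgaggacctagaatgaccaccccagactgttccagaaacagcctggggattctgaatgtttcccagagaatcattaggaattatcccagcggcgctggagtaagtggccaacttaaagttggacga
CASP2, chr7:143288101-143288350, plus strand: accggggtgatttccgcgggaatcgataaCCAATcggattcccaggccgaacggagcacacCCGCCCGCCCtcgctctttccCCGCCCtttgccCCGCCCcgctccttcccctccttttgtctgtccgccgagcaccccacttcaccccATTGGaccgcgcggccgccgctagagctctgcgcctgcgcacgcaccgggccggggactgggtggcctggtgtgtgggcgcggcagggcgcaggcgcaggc
TNFRSF1A, chr12:6342077-6342326, minus strand: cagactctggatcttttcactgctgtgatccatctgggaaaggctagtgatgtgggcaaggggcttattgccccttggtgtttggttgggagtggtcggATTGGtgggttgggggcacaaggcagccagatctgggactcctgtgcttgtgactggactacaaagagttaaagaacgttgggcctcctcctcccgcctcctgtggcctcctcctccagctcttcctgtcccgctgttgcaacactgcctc
Capitals mark matches on either strand to any of 6 motifs: the E-box CACGTG, the GC box GGGCGG, the cyclic AMP response element core TGACGT, the AP-1 site TGANTCA, the CCAAT box CCAAT, and the interferon-stimulated response element, searched as GAAA, any 2 bases and GAAA. Matches that overlap run together as 1 stretch of capitals.

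PMAIP1 had 4 GC boxes and 1 cyclic AMP response element core in this window. BBC3 had 1 E-box, 1 AP-1 site and 1 CCAAT box. CASP2 had 4 GC boxes and 2 CCAAT boxes, TNFRSF1A had 1 CCAAT box, and BID had no match to these letters. A GC box was in 42.6% of all 35116 windows of this length and in 20 of the 34 members with a window, among them 4 of 7 called higher and 4 of 7 called lower. The cyclic AMP core was in 7.1% of all windows and in 5 of the 34, the E-box in 6.34% and 3, the AP-1 site in 6.57% and 1, the CCAAT box in 32% and 16, and the interferon-stimulated element in 3.02% and 1, which was BCL2A1. GC made up 72.8% of the PMAIP1 window and 47.6% of that of BID, beside a median of 58% over all windows. These matches are letters in a window and not shown sites.

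**Figure D3:**
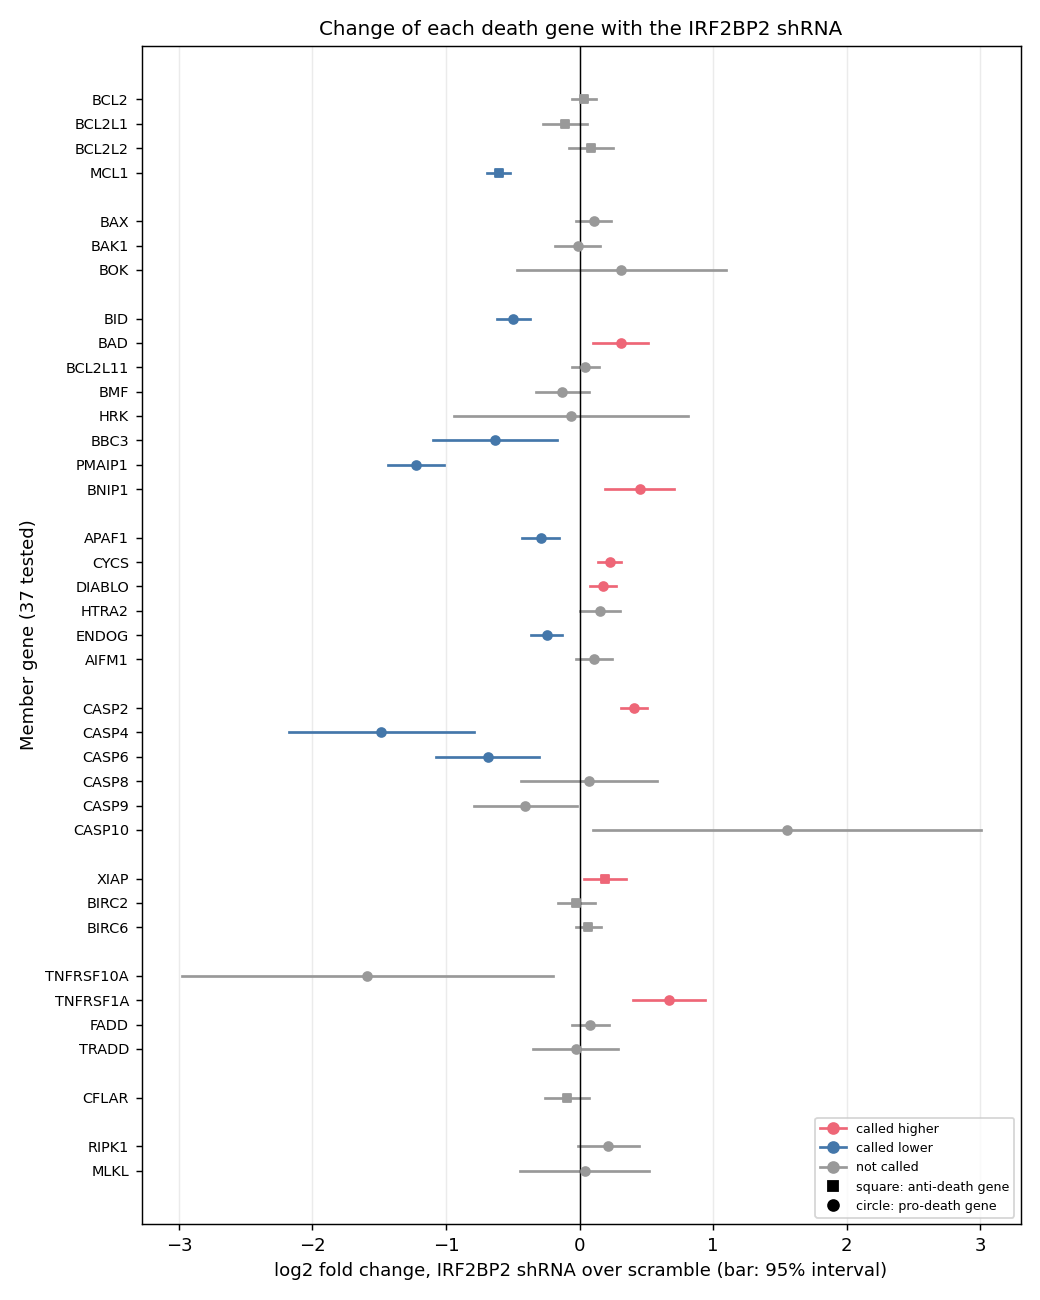
Log2 fold change of each of the 37 tested genes, IRF2BP2 shRNA over scramble, with its 95% interval, in the same order of roles; red is called higher, blue called lower and grey not called, and squares are anti-death genes. PMAIP1 at -1.23 and CASP4 at -1.49 lie farthest left among called genes and TNFRSF1A at 0.67 farthest right, while the uncalled TNFRSF10A and CASP10 have the widest intervals.

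Genes that act once the mitochondrion is breached moved little and in both directions. Of the 6, all were tested, 2 rose, 2 fell and 2 were not called, and none changed over 1.5-fold. CYCS, which encodes cytochrome c, was at 182 and 183 CPM with scramble and rose to 217 and 209 CPM (log2 fold change 0.23 with standard error 0.04, edgeR adjusted p = 7.97e-04). DIABLO, an antagonist of IAPs, rose from 84.6 and 88.5 CPM to 97.0 and 98.2 CPM (log2 fold change 0.17, edgeR adjusted p = 0.00762). In both genes the higher scramble library stayed below the lower shRNA library. DIABLO shares 14.3% of its exon length with B3GNT4 on the opposite strand, with mean counts of 2974 and 156. Another annotated entry named DIABLO covers 29.6% of it and AC048338.1 16.8%, both on the same strand. Reads from these overlaps cannot be told apart.

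APAF1, the scaffold of the apoptosome, fell while its activator CYCS rose. It was at 59.1 and 63.8 CPM with scramble and 50.9 and 49.5 CPM with the shRNA (log2 fold change -0.29 with standard error 0.06, edgeR adjusted p = 0.00285). ENDOG, a mitochondrial nuclease, was at 84.7 and 85.6 CPM with scramble and 69.1 and 74.5 CPM with the shRNA (log2 fold change -0.25, edgeR adjusted p = 0.0024). SPOUT1 covers 39.2% of the exon length of ENDOG on the opposite strand, with a mean count of 2350 against 2540, so this fall cannot be assigned to ENDOG alone. AIFM1, a flavoprotein of the mitochondrial intermembrane space, and HTRA2, a serine protease that antagonises IAPs, were not called (log2 fold changes 0.11 and 0.15, edgeR adjusted p = 0.192 and 0.0979). HTRA2 shares 16.1% of its exon length with AUP1 and 20.8% with LOXL3, both on the opposite strand. Their mean counts were 3947 and 1083 against 1700 for HTRA2. HTRA2 cannot be told apart from them in reads of these overlaps. It was called higher without shRNA replicate 1 (edgeR adjusted p = 0.0316).

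Caspases moved apart. Of 6 tested, 1 rose, 2 fell and 3 were not called. CASP2, an initiator tied to DNA damage and centrosomes, was the most abundant listed caspase at 12.3 CPM per kilobase with scramble. It was at 103 and 94.8 CPM with scramble and 130 and 132 CPM with the shRNA. Both shRNA libraries lay well above both scramble libraries (log2 fold change 0.41 with standard error 0.05, edgeR adjusted p = 2.43e-05).

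CASP6, an executioner that cuts lamins, was at 8.53 and 8.21 CPM with scramble and 4.57 and 5.81 CPM with the shRNA. MCUB covers 5.4% of the CASP6 exon length on the opposite strand, with a mean count of 401 against 220 for CASP6. Reads from that overlap cannot be told apart. CASP6 fell 1.61-fold (log2 fold change -0.69 with standard error 0.17, edgeR adjusted p = 0.00785). Leaving out shRNA replicate 1, the lower of the pair, ended this call (edgeR adjusted p = 0.0702). CASP4, an inflammatory caspase that binds lipopolysaccharide, had 95 and 64 counts with scramble and 26 and 29 with the shRNA, or 2.74 and 2.08 against 0.814 and 0.906 CPM. It fell 2.8-fold (log2 fold change -1.49 with standard error 0.31, edgeR adjusted p = 0.00269). CASP1 lies 56.0 kilobases from CASP4 on chromosome 11, and it was at 0 in all libraries.

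The initiators of both routes were low. CASP8 was at 2.80 and 2.90 CPM with scramble and 2.79 and 3.19 CPM with the shRNA, and its groups overlapped (log2 fold change 0.07, interval -0.44 to 0.58, edgeR adjusted p = 0.842). At this depth, changes of CASP8 within that interval, in either direction, were not excluded. CASP9 was at 7.41 and 7.17 CPM with scramble and 4.88 and 6.13 CPM with the shRNA (log2 fold change -0.40, edgeR adjusted p = 0.0879). CASP10, a relative of CASP8, had 7 and 3 counts with scramble and 12 and 17 with the shRNA, and was not called (edgeR adjusted p = 0.0816). CASP8, CASP10 and CFLAR are neighbours on chromosome 2, with 4.0 kilobases between CASP10 and CASP8 and 6.2 kilobases between CFLAR and CASP10. None of these 3 neighbours was called, and per kilobase CFLAR (1.85 CPM per kilobase with scramble) stood above CASP8 (0.393).

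Of 3 IAPs tested, 1 rose slightly and 2 were not called. XIAP, which binds and blocks caspases directly, was at 53.0 and 51.0 CPM with scramble and 63.5 and 55.5 CPM with the shRNA. Its groups did not overlap, but the shRNA replicates were farther apart than the gap to scramble (log2 fold change 0.19 with standard error 0.07, edgeR adjusted p = 0.0485). The call held in 4 of 11 alternative analyses. Without shRNA replicate 1 the log2 fold change was 0.10 (edgeR adjusted p = 0.397), without shRNA replicate 2 it was 0.29 (0.00792), and without scramble replicate 2 it was 0.17 (0.149).

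BIRC6, a giant ubiquitin ligase that restrains apoptosis, was at 243 and 230 CPM with scramble and 244 and 251 CPM with the shRNA, and was not called (log2 fold change 0.07, interval -0.03 to 0.16, edgeR adjusted p = 0.251; called without scramble replicate 1, 0.0427). BIRC2, which encodes cIAP1, was at 51.0 and 54.3 CPM with scramble and 51.6 and 51.9 CPM with the shRNA, where the shRNA values lay between the scramble values. BIRC2 and the barely detected BIRC3 are separated by 7.8 kilobases on chromosome 11. The ratio of XIAP to DIABLO counts was 0.626 and 0.576 with scramble and 0.654 and 0.566 with the shRNA, and its groups overlapped.

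TNFRSF1A, the main receptor for TNF, was the 1 called of the 4 listed death receptors and adaptors, and it rose. It lies on chromosome 12 from 6328757 to 6342114. It was at 21.9 and 28.6 CPM with scramble and 40.1 and 40.1 CPM with the shRNA. The scramble replicates differed, yet both stayed well below the shRNA pair (log2 fold change 0.67 with standard error 0.12, edgeR adjusted p = 0.00187). Without scramble replicate 1 the log2 fold change was 0.49 and without scramble replicate 2 it was 0.87, with the call kept in both. TNFRSF10A, a receptor for TRAIL, had 27 and 11 counts with scramble and 7 and 5 with the shRNA (log2 fold change -1.59, interval -2.98 to -0.20, edgeR adjusted p = 0.0641). Its log2 fold change was -0.91 without scramble replicate 1 and -2.03 without scramble replicate 2. At these counts a difference between the groups could not be established.

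The adaptors beneath the receptors, and CFLAR, were not called. FADD, which couples receptors to CASP8, was at 44.9 and 45.6 CPM with scramble and 48.1 and 47.6 CPM with the shRNA (log2 fold change 0.08, interval -0.06 to 0.22, edgeR adjusted p = 0.346). TRADD, the first adaptor of TNFRSF1A, was at 8.85 and 9.77 CPM with scramble and 8.57 and 9.66 CPM with the shRNA. CFLAR, the catalytically dead relative of CASP8, was at 40.6 and 42.8 CPM with scramble and 40.7 and 37.4 CPM with the shRNA (log2 fold change -0.09, interval -0.26 to 0.07, edgeR adjusted p = 0.355). The groups overlapped for TRADD and for CFLAR.

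Of 2 necroptosis genes tested, 0 were called by edgeR or in any alternative, DESeq2 and limma voom included, and 0 had an unadjusted p under 0.05. RIPK1, a kinase of both survival and death signalling, was at 15.1 and 14.3 CPM with scramble and 16.7 and 17.4 CPM with the shRNA (log2 fold change 0.22, interval -0.01 to 0.44, edgeR adjusted p = 0.115). MLKL, which permeabilises the plasma membrane, was at 3.11 and 3.13 CPM with scramble and 3.16 and 3.25 CPM with the shRNA. RIPK3, the kinase that activates MLKL, had the single count given above.

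**Figure D4:**
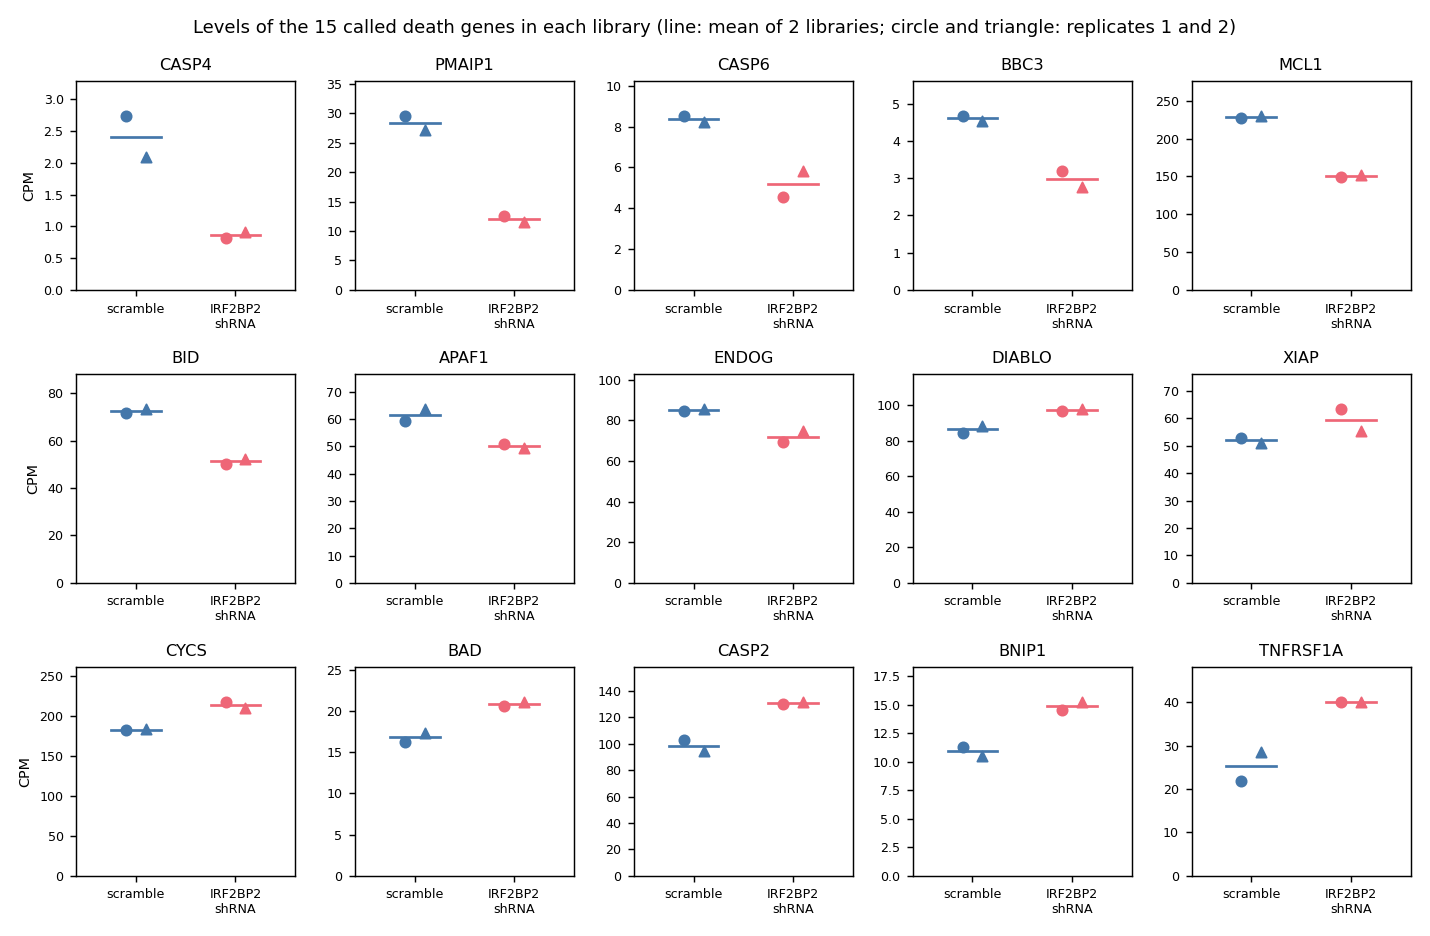
CPM of the 15 called death genes in each library, ordered from the largest fall to the largest rise; each panel has its own axis from 0, circles are replicate 1, triangles replicate 2 and lines the mean of 2 libraries. In all 15 panels the scramble and IRF2BP2 shRNA points do not overlap, and the shRNA points of XIAP are the ones most spread relative to their distance from scramble.

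Other genes of the same pathways, from a list of 56 textbook names, give the surroundings of these members. Of 45 tested, 23 (51.1%) were called, 13 higher and 10 lower, beside the 42.0% of all genes tested. BCL2L12, a BCL2-like gene, rose by 0.92 on the log2 scale, and the death receptor gene TNFRSF21 by 0.42. CYLD, a deubiquitinase of TNF receptor signalling, fell from 32.4 ± 1.59 to 17.9 ± 0.99 CPM (SD, n = 2), FAIM2, an inhibitor of FAS signalling in neurons, from 17.2 ± 3.23 to 5.52 ± 0.82 CPM, and DFFA, the inhibitor of the apoptotic DNA nuclease, from 190 ± 0.60 to 151 ± 3.42 CPM.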

How the data were processed

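RNA of SK-N-BE(2) cells was sequenced in 2 scramble and 2 IRF2BP2 shRNA libraries. The authors deposited raw counts for each gene. Reads were mapped to hg38 with HISAT2 version 2.2.0, per the submitters' processing notes, while counter and annotation were not given in the sources used here. Columns abbreviated NC were taken as scramble, the only other group. Genes were kept with filterByExpr and tested with edgeR 4.0.16 (quasi-likelihood, robust, TMM, R 4.3.3), two-sided, with Benjamini-Hochberg adjustment over 19093 genes. CPM are relative to the TMM-scaled total of the genes tested, and standard errors are the absolute log2 fold change over the square root of F. Exon lengths, positions and overlaps came from GENCODE release 29 and promoter windows from RefSeq. The procedure was tested on simulated data. Members and lists were chosen with earlier results of these data known. Named were all members, and of the other pathway genes up to 3 called in each direction with the smallest p; 1 gene that this rule took is not reported here. The labels do not say whether replicates were separate cultures, so the p-values reflect spread between libraries that may be technical. Alternatives used DESeq2 1.42.0, limma 3.58.1, other scalings and filters, a replicate block, and each library left out.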

Additional observations from a re-analysis of the deposited data

How the results depend on the processing

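Of the 15 called death genes, 10 kept their call in every alternative analysis that tested them. The other 5 (BAD, BBC3, BNIP1, CASP6 and XIAP) lost it in at least 1, none with a change of direction. CASP4, BBC3 and CASP6 were each tested in 10 of the 11 alternatives, since they did not reach a mean of 10 CPM. A mean of at least 10 CPM left 5 members called lower, 4 of them pro-death, since fewer genes were tested. With that filter, upper quartile scaling, no filter on low counts, DESeq2 or limma voom, 1 anti-death gene was called and 0 of them higher, since XIAP lost its call. Leaving out 1 library in turn gave 12 to 15 members called, with 1 to 3 anti-death genes called and 0 to 2 of them higher. The labels do not say whether same-numbered libraries shared more than a number. The correlation of their deviations over all genes tested was 0.06. This value includes genes with few counts, where counting error is large, so it cannot decide the question. With the replicate block 15 members were called, 7 higher and 8 lower.

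Directions turned only among genes that were not called. With upper quartile scaling the log2 fold change was -0.013 for BCL2, -0.0047 for BCL2L11 and -0.0097 for MLKL, with a mean of at least 10 CPM it was -0.0041 for BCL2, and with no filter it was 0.0002 for BAK1. Leaving out 1 library gave -0.0001 to 0.19 for BCL2L2, -0.096 to 0.069 for BAK1, -0.049 to 0.61 for BOK, -0.0082 to 0.11 for BCL2L11, -0.80 to 0.43 for HRK, -0.028 to 0.17 for CASP8, -0.060 to 0.023 for BIRC2 and -0.11 to 0.057 for TRADD. The cause was not tested.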
